A study of Drosophila melanogaster with 12 samples.

Results

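The comparison was of T4 neurons with Pm2 neurons, a pair of cell types sorted from the optic lobe of Drosophila melanogaster, across every gene with 10 or more counts in 3 or more of the 12 columns of the count table. By this rule 10528 of 16272 gene names were compared, in 6 of the 12 libraries of the series, 3 of T4 and 3 of Pm2. The other libraries, 3 of sorted neurons and 3 of sorted glia, served as a reference for levels. All came from 3-day-old adults of the Canton-S strain. Each cell type was marked by crossing a Gal4 line for that type to UAS-Red Stinger, which puts a red fluorescent protein in the nucleus, and the labelled cells of dissociated brains were collected by fluorescence-activated sorting. Total RNA was extracted from the sorted cells, copied to full-length cDNA with the Smart-Seq v4 kit, made into libraries with Nextera XT and sequenced as paired 100-base reads. Since every type had its own Gal4 line, a difference between the types and a difference between the lines cannot be told apart. In sorted pools, fewer cells that express a gene and less of its RNA in each cell cannot be told apart either. The labels did not say whether the libraries of a type came from separate animals, so the p-values measure the spread between libraries.

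T4 neurons are the first direction-selective cells of the fly's pathway for moving light edges. They are columnar cells with dendrites in the medulla and axons in the lobula plate, and they release acetylcholine, the main excitatory transmitter of the fly brain. Their subtypes, tuned to different directions, were not separated in these libraries. Pm2 neurons belong to the proximal medulla neurons, local amacrine-like cells of the medulla that release GABA, the main inhibitory transmitter. A neuron's transcription factors select its transmitter genes, its receptors for the transmitters of its partners, and the cell-surface proteins by which it finds them.

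The T4 libraries held 44522117 to 48441795 counts and the Pm2 libraries 51397068 to 57811629 counts. Levels are given in counts per 1e6 counts (CPM) after TMM scaling, and values after ± are the SD over 3 libraries. Differences are log2 of T4 over Pm2, so positive values mean higher in T4, each with its SE and a Benjamini-Hochberg adjusted p from edgeR's quasi-likelihood test over the 10528 genes. Genes with an adjusted p under 0.05 are called. Libraries of a type correlated with each other at 0.992 to 0.996 in log2 CPM over these genes, and libraries of different types at 0.907 to 0.912, as a description. The pan-neuronal genes elav and nSyb were at 507 ± 33.4 CPM in T4 and 417 ± 24 CPM in Pm2 and at 2382 ± 90.1 CPM in T4 and 2349 ± 78.8 CPM in Pm2, respectively. Of these, elav was called (log2 difference 0.28, SE 0.08, adjusted p = 0.0211) and nSyb was not. Other genes of all neurons differed by more, with log2 differences of -0.80 for brp and 1.16 for Syt1, both called. Summed marker genes of glia reached 158 to 169 CPM in T4, 35.9 to 68.3 CPM in Pm2 and 43887 to 54386 CPM in sorted glia. Muscle markers summed to 2.41 to 59.1 CPM in T4, with T4 replicate 1 the highest, and to 1.38 to 1.55 CPM in Pm2. Genes named for ribosomal RNA took 0.377% to 0.383% of counts in T4, 0.50% and 0.514% in Pm2 replicates 3 and 2, and 0.864% in Pm2 replicate 1.

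The levels of 4937 genes differed between the types, which is 46.9% of those tested. Of these, 2442 were higher in T4 (23.2%) and 2495 lower (23.7%). Without TMM scaling, on library totals alone, the split was 3042 higher and 1998 lower, and the median over all genes moved from 0.00 to 0.14 on the log2 scale. At least 2-fold differences were called for 2410 genes (22.9%), with 1165 higher (11.1%) and 1245 lower (11.8%) in T4. The largest differences leaned the other way, with 515 genes at least 16-fold higher in T4 and 314 at least 16-fold lower. In 6046 genes (57.4%) all libraries of one type lay above all libraries of the other. A further 703 genes had an unadjusted p under 0.05 without being called.

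**Figure D1:**
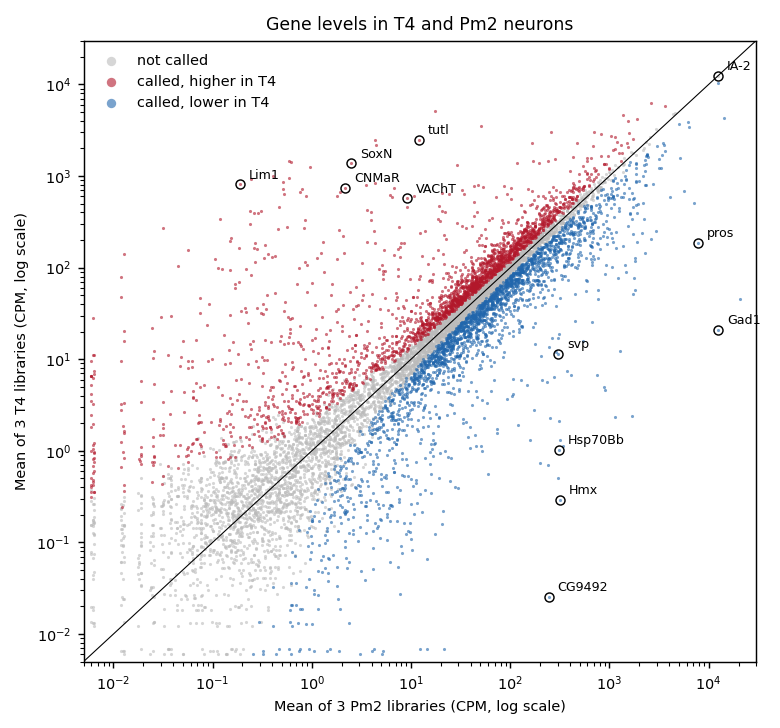
Mean level of each gene in the 3 Pm2 libraries (horizontal) and the 3 T4 libraries (vertical), in CPM on log axes, with 1 point per gene for the 9517 genes with a count in both types; the line marks equal levels and ringed genes are named in the text. Lim1, SoxN and VAChT lie far above the line, Gad1, Hmx and CG9492 far below it, and IA-2 on it at 12416 CPM in T4.

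The transmitter genes separated the sorts. VAChT, the vesicular acetylcholine transporter (3R, 18705501 to 18718916, BDGP6), was at 514, 651 and 553 CPM in the T4 libraries and at 6.84, 11.1 and 9.57 CPM in the Pm2 libraries. Gad1, the glutamate decarboxylase that makes GABA (3L, 4074077 to 4088744), was at 37.1, 14.9 and 10.8 CPM in T4 and at 13252, 11784 and 12299.8 CPM in Pm2. For both genes the groups were far apart, and T4 replicate 1 held more Gad1 than the other T4 libraries. VAChT was 62.5-fold higher in T4 (log2 difference 5.97, SE 0.20, adjusted p = 1.55e-08) and Gad1 593-fold lower (log2 difference -9.21, SE 0.50, adjusted p = 4.75e-07). The level of Gad1 in sorted neurons, 1698 ± 111 CPM, lay between the types, and that of VAChT, 616 ± 100.2 CPM, was close to T4.

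All 4 genes of acetylcholine synthesis, transport and breakdown, the marker VAChT among them, were higher in T4, against 23.2% over all genes. Choline acetyltransferase, listed as Cha, was at 419.8 ± 41.6 CPM in T4 and 20.7 ± 2.11 CPM in Pm2 (log2 difference 4.34, SE 0.12, adjusted p = 5.81e-09). Its exons overlap those of VAChT over 15.1% of their length, since both share a locus. CG7708, the choline transporter ChT that recovers choline from the synapse, was at 493, 721 and 591 CPM in T4 and at 2.25, 2.49 and 0.604 CPM in Pm2 (log2 difference 8.39, adjusted p = 2.03e-07). Of its exon length, 69.5% overlaps another gene, CG46318, so its level is uncertain. Ace, the acetylcholinesterase that breaks the transmitter down, was also at 426 ± 19.7 CPM in Pm2, against 1604 ± 207 CPM in T4 (3.76-fold).

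Of the 4 genes of GABA synthesis and transport, 3 were lower in T4 (75%), the marker Gad1 among them, and 1 was higher (25%). The shares over all genes were 23.7% and 23.2%. VGAT, which loads GABA into vesicles, was at 123, 119 and 114 CPM in T4 and at 485, 490.1 and 507 CPM in Pm2, a 4.17-fold difference in groups that did not overlap (log2 difference -2.06, SE 0.08, adjusted p = 3.66e-08). With the neuron and glia libraries in the same fit its adjusted p was 0.0505 (5.39e-161 to 0.0505 over the settings tried). CG7433, the GABA transaminase Gabat that degrades GABA, was at 379 ± 31.2 CPM in T4 and 721 ± 45.4 CPM in Pm2. The exception was CG1732, the plasma membrane GABA transporter Gat, at 50.2 ± 5.91 CPM in T4, 1.57 ± 1.03 CPM in Pm2 and 6967 ± 1143 CPM in sorted glia. Beside it, 6 of the 17 tested glia markers (35.3%), Gat among them, were called higher in T4, against 23.2% over all genes, and none lower, against 23.7%. The glutamine synthetase Gs2 was at 43.5 ± 7.41 CPM in T4, 19.2 ± 8.89 CPM in Pm2 and 11228.5 CPM in sorted glia. Of the other called markers, nrv2 was at 46.7 ± 4.88 CPM in T4 and 6466 CPM in sorted glia. Eaat1 was at 4.98 ± 0.983 CPM in T4 and 7801 CPM in sorted glia, and alrm at 4.60 ± 1.36 CPM in T4 and 6551 CPM in sorted glia. The calls of Gs2, Eaat1 and alrm were each lost in some of the settings tried, with adjusted p of up to 0.0611, 0.0555 and 0.102. The defining glial factor repo had a mean of 0.327 CPM in T4 and 0 in Pm2. The part of glial RNA in the Gat result was not tested.

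Genes of other transmitters were low in one or both types. VGlut, the vesicular glutamate transporter, was at 28.7 ± 9.71 CPM in T4 and 0.573 ± 0.276 CPM in Pm2, both far under its 924 ± 184 CPM in sorted neurons. Ddc, the dopa decarboxylase of dopamine and serotonin synthesis, was at 510.3, 860.1 and 583 CPM in T4 and 20.3 ± 1.30 CPM in Pm2 (32.1-fold, adjusted p = 6.14e-08). Tbh, the tyramine beta-hydroxylase that makes octopamine, was at 219.7 ± 25.2 CPM in T4 and 2.06 ± 0.752 CPM in Pm2 (log2 difference 6.73, adjusted p = 3.45e-08). The gene ple, the tyrosine hydroxylase ahead of Ddc, was at 0.370 ± 0.521 CPM in T4 and 14 ± 2.32 CPM in Pm2. Of the 13 tested genes for monoamine and histamine synthesis and transport, 3 were higher (23.1%) and 1 lower (7.69%) in T4. The shares over all genes were 23.2% and 23.7%. The other 9 were not called, Vmat, the vesicular monoamine transporter, and Tdc2, the tyrosine decarboxylase, among them.

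Transcription factors differed steeply between the types. SoxN (2L, 8825645 to 8829670), a Sox factor, was at 1432, 1413 and 1303 CPM in T4 and at 2.20, 2.05 and 3.25 CPM in Pm2. The svp gene, the nuclear receptor seven-up (3R, 12258737 to 12302785), ran the other way, at 15.6, 8.80 and 9.97 CPM in T4 and 299, 284 and 323 CPM in Pm2. Neither pair of groups overlapped, and the differences were 553-fold (log2 difference 9.11, SE 0.19, adjusted p = 1.18e-09) and 26.3-fold (log2 difference -4.72, SE 0.21, adjusted p = 1.19e-07). Together with VAChT and Gad1, all 4 markers given for these neurons were on the side of their label. The markers were chosen with earlier results of these data known, so this is a description and no test of the sorts.

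Of the 11 tested genes on a list of factors known from T4 and the related T5 neurons, 8 were higher (72.7%) and 2 lower (18.2%) in T4. The shares over all genes were 23.2% and 23.7%, and the median log2 difference of the list was 8.72. This list was drawn up from what is known of these neurons and with earlier results of these libraries in view. Lim1, a LIM-homeodomain factor, was at 735, 855 and 867 CPM in T4 and at 0.124, 0.249 and 0.189 CPM in Pm2 (log2 difference 12.09, SE 0.18, adjusted p = 4.08e-10). Sox102F, another Sox factor, was at 865 ± 72.2 CPM in T4 and 0.511 ± 0.226 CPM in Pm2 (log2 difference 10.73, SE 0.22, adjusted p = 1.21e-09). The POU factor acj6 was at 605 ± 56 CPM in T4 and 0.882 ± 0.588 CPM in Pm2, and dac, the dachshund factor that is also used in eye development, at 32.3 ± 8.92 CPM in T4 and 0.0753 ± 0.0826 CPM in Pm2. The GATA factor grn had 35.8, 37.1 and 31.1 CPM in T4 and no count in any Pm2 library, which makes it at least 1868-fold higher against a floor of 3 counts over the 3 Pm2 libraries. TfAP-2 was present in both types, at 422 ± 18.1 CPM in T4 and 294 ± 3.59 CPM in Pm2. The list members lower in T4 were bi, the T-box factor optomotor-blind, at 146 ± 21.9 CPM in T4 and 403 ± 11.3 CPM in Pm2, and pros, the homeodomain factor prospero, at 149, 219 and 193 CPM in T4 and 8177, 7675 and 7665 CPM in Pm2 (log2 difference -5.39, SE 0.15, adjusted p = 5.02e-09).

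Among 51 tested optic lobe identity factors, 19 were higher (37.3%) and 3 lower (5.88%) in T4, against 23.2% and 23.7% over all genes. The list median was 2.06, or 2.81 when genes with no count in a type are put at their bound and those with none in either are left out. CG34340, the homeobox gene Drgx, was at 926 ± 87.1 CPM in T4 and 0.245 ± 0.136 CPM in Pm2, and the forkhead factor fkh at 415 ± 66.4 CPM in T4 and 0.239 ± 0.172 CPM in Pm2. The pipsqueak-type factor danr was at 105 ± 12.7 CPM in T4 and 0.0446 ± 0.0483 CPM in Pm2, and the BTB factor bab2 at 191 ± 19.3 CPM in T4 and 1.28 ± 0.377 CPM in Pm2. On the Pm2 side stood the homeobox gene Hmx, at 0.327, 0.513 and 0.0396 CPM in T4 and 314, 299.8 and 332 CPM in Pm2 (log2 difference -10.07, SE 0.34, adjusted p = 1.71e-08). The cell fate gene mab-21 was at 0.472, 0.533 and 0.494 CPM in T4 and 296, 309 and 303 CPM in Pm2 (log2 difference -9.24, SE 0.12, adjusted p = 2.70e-10). Lim3, a LIM-homeodomain factor like Lim1, was at 0.744 ± 0.368 CPM in T4 and 198 ± 7.30 CPM in Pm2 (log2 difference -8.03, SE 0.25, adjusted p = 9.56e-09). Each type thus had a LIM-homeodomain gene that was under 1 CPM in the other, apart from T4 replicate 1, which had 1.16 CPM of Lim3.

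**Figure D2:**
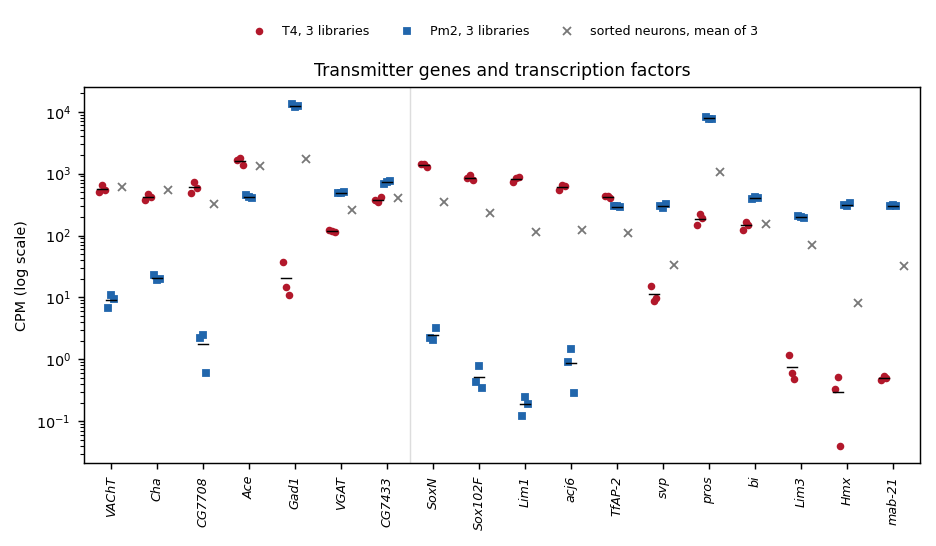
Level in CPM (log axis) of 7 transmitter genes, left of the grey line, and 11 transcription factors in each of 3 T4 libraries (circles) and 3 Pm2 libraries (squares), with the mean as a bar and the mean of the 3 sorted neuron libraries as a cross. The T4 and Pm2 points of every gene shown are apart, by the least for TfAP-2, at 422 and 294 CPM.

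Near-exclusive transcripts, with 20 CPM or more in all libraries of one type and under 1 CPM in all libraries of the other, were more numerous in T4. T4 had 68 and Pm2 had 7, or 11 with T4 replicate 1 left out. The most abundant in T4 was ST6Gal, a sialyltransferase that adds sialic acid to glycoproteins, at 1515, 1470.5 and 1432 CPM against 0.549, 0.422 and 0.812 CPM in Pm2. Scp2, a calcium-binding protein, was at 720.2 ± 125 CPM in T4 and 0.516 ± 0.247 CPM in Pm2, and CG3655 at 413 ± 36.2 CPM in T4 and 0.311 ± 0.101 CPM in Pm2. Others of the 10 most abundant were the surface proteins dpr, klg and dpr10 and the factors Sox102F, Lim1, CG34340 and fkh. CG34351, among the genes with the largest fold difference, was at 276, 286 and 245 CPM in T4 and at 0.0177, 0.0576 and 0.0189 CPM in Pm2 (log2 difference 12.98, SE 0.21, adjusted p = 4.08e-10). Genes with no count in any Pm2 library included Gld2, a cytoplasmic poly(A) polymerase, at 13 ± 1.76 CPM in T4 and at least 702-fold higher. Pp1-13C, a catalytic subunit of a protein serine/threonine phosphatase, was at 12.1 ± 1.40 CPM and at least 652-fold higher. It lies within the span of acj6 on the same strand, without shared exons, and acj6 was at 605 CPM in T4 and 0.882 CPM in Pm2. The part of unspliced acj6 RNA in the level of Pp1-13C was not tested.

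The 7 near-exclusive genes of Pm2 were Hmx, mab-21, CG9492, Cad87A, CG13137, CG14128 and CG32581. CG9492, the axonemal dynein heavy chain Dhc1, was at 228, 252 and 252 CPM in Pm2 and at 0.0363, 0.0205 and 0.0198 CPM in T4, where a single count is worth 0.0182 to 0.0205 CPM. Its mean was 0.404 CPM in sorted neurons and 0.0412 CPM in sorted glia. Tektin-C, which codes for a microtubule protein of axonemes and was picked after its values were seen, was at 89.1 ± 4.62 CPM in Pm2 and 25 ± 4.82 CPM in T4 (log2 difference -1.83, SE 0.14, adjusted p = 5.65e-06). Its mean was 0.241 CPM in sorted neurons and 35.8 ± 14.3 CPM in sorted glia. Cad87A, a cadherin, was at 65.9, 52 and 61.8 CPM in Pm2 and 0.556 ± 0.343 CPM in T4. CG13137 and CG14128 were at 29.7 ± 0.259 and 27.9 ± 5.52 CPM in Pm2, and CG32581 at 21.6 ± 0.841 CPM with 0.00684 CPM in T4. Among the largest differences toward Pm2, amd, a relative of Ddc encoded beside it, had no T4 count and 14.5, 15.9 and 16.1 CPM in Pm2, at least 797-fold. The cold-inducible gene Fst, also without a T4 count, was at 4.24 ± 0.872 CPM. It lies within the span of the neuropeptide gene Dh44 on 3R, without shared exons, and Dh44 was at 174 CPM in Pm2 and 2.79 CPM in T4. CG9492 starts at 9651179, just past the end of Dh44 at 9650706, so these genes are neighbours. The part of unspliced Dh44 RNA in the level of Fst was not tested.

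Receptors for the transmitters differed in kind between the types. The nicotinic acetylcholine receptors are pentameric cation channels through which most excitation passes in the fly brain. Of their 9 tested subunit genes, 4 were higher (44.4%) and 3 lower (33.3%) in T4, against 23.2% and 23.7% over all genes. The subunit nAChRalpha7 was at 646, 596 and 525 CPM in T4 and 4200.2, 3894 and 3999 CPM in Pm2 (log2 difference -2.77, SE 0.09, adjusted p = 1.36e-08). The subunit nAChRalpha3 ran the other way, at 313, 314 and 375 CPM in T4 and 4.61, 2.03 and 5.25 CPM in Pm2 (log2 difference 6.39, SE 0.31, adjusted p = 1.88e-07). For both, the groups were far apart and sorted neurons lay between them for nAChRalpha3, at 263 CPM, and for nAChRalpha7, at 1305 CPM. The subunit nAChRalpha6 was low in both types, at 6.67 ± 2.39 CPM in T4 and 0.911 ± 0.176 CPM in Pm2, against 685 ± 24.1 CPM in sorted neurons.

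The other nicotinic subunits differed by less than 2-fold. nAChRalpha1 and nAChRalpha2 were lower in T4, at 208 ± 25 CPM in T4 and 356 ± 45 CPM in Pm2 and at 159.8 ± 11.1 CPM in T4 and 246 ± 6.46 CPM in Pm2. nAChRalpha5 and nAChRbeta2 were higher in T4, with log2 differences of 0.50 (SE 0.10, adjusted p = 0.00316) and 0.35 (SE 0.07, adjusted p = 0.0031). Both calls were lost when all 12 libraries were fitted, with adjusted p of 0.217 (5.02e-06 to 0.217 over the settings tried) and 0.219 (5.01e-07 to 0.219 over the settings tried). nAChRalpha4 and nAChRbeta1 were not called, with 95% intervals of the log2 difference from -0.06 to 0.71 and from -0.29 to 0.04. In CPM per kilobase of exon, the scale on which genes can be compared, the order in T4 was nAChRbeta1 at 345, nAChRbeta2 at 120.04 and nAChRalpha7 at 102, and in Pm2 nAChRalpha7 at 698, nAChRbeta1 at 377 and nAChRalpha2 at 103.

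Every tested GABA receptor gene, 7 of 7, was higher in T4, in a comparison where 23.2% of all genes were. The list median was 1.53 against 0.00 over all genes. Rdl, the main subunit of GABA-gated chloride channels, was at 1497, 1585 and 1588 CPM in T4 and 602, 596 and 582 CPM in Pm2, 2.62-fold apart (log2 difference 1.39, SE 0.07, adjusted p = 2.14e-07). CG8916, which codes for a subunit of the same channel family, was at 739.6, 789 and 659 CPM in T4 and at 0.425, 0.883 and 1.09 CPM in Pm2 (log2 difference 9.84, SE 0.25, adjusted p = 3.35e-09). Lcch3, another subunit, was at 124 ± 7.48 CPM in T4 and 81.9 ± 1.80 CPM in Pm2, with 31.3% of its exon length shared with Ranbp16. Grd was at 2.79 ± 1.15 CPM in T4 and 0.0118 CPM in Pm2, and 27.5% of its exon length is shared with CG5577. Of the metabotropic subunits, GABA-B-R1 was at 344 ± 33.4 CPM in T4 and 119 ± 8.39 CPM in Pm2, GABA-B-R2 at 447 ± 34.2 CPM in T4 and 328 ± 16.1 CPM in Pm2 and GABA-B-R3 at 11.4 ± 5.34 CPM in T4 and 0.180 ± 0.0952 CPM in Pm2. The calls of GABA-B-R2 and Lcch3 were lost in the fit of all 12 libraries, with adjusted p of 0.195 (6.05e-07 to 0.195 over the settings tried) and 0.350 (1.45e-10 to 0.35 over the settings tried).

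Of 12 tested glutamate receptor genes, 5 were higher (41.7%) and 4 lower (33.3%) in T4, against 23.2% and 23.7% over all genes. Both NMDA receptor subunits were lower in T4. Nmdar2 was at 147, 114 and 121 CPM in T4 and 1808, 1757 and 1909 CPM in Pm2 (log2 difference -3.84, SE 0.11, adjusted p = 7.71e-09), and Nmdar1 at 37.1 ± 4.91 CPM in T4 and 178 ± 15.3 CPM in Pm2 (log2 difference -2.26, SE 0.12, adjusted p = 4.40e-07). CG3822, the kainate-type receptor KaiR1D, was also lower, at 118 ± 10.4 CPM in T4 and 239.9 ± 8.14 CPM in Pm2. The AMPA-type subunits were higher in T4, with GluRIA at 29 ± 8.85 CPM in T4 and 1.27 ± 0.652 CPM in Pm2 and GluRIB at 131 ± 20.3 CPM in T4 and 40 ± 2.68 CPM in Pm2. GluClalpha, the glutamate-gated chloride channel by which glutamate inhibits fly neurons, was high in both types, at 1667 ± 158 CPM in T4 and 2319 ± 204 CPM in Pm2 (log2 difference -0.48, adjusted p = 0.00218). Its call was lost in the fit of all 12 libraries, with an adjusted p of 0.239, and under quantile normalization, with 0.0707 (3.47e-05 to 0.239 over the settings tried). The histamine-gated channels, which receive photoreceptor output, were low in both types, with ort at 10.5 ± 3.84 CPM in T4 and 0.317 ± 0.296 CPM in Pm2 and HisCl1 at 12.4 ± 5.10 CPM in T4 and 22.4 ± 3.42 CPM in Pm2.

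**Figure D3:**
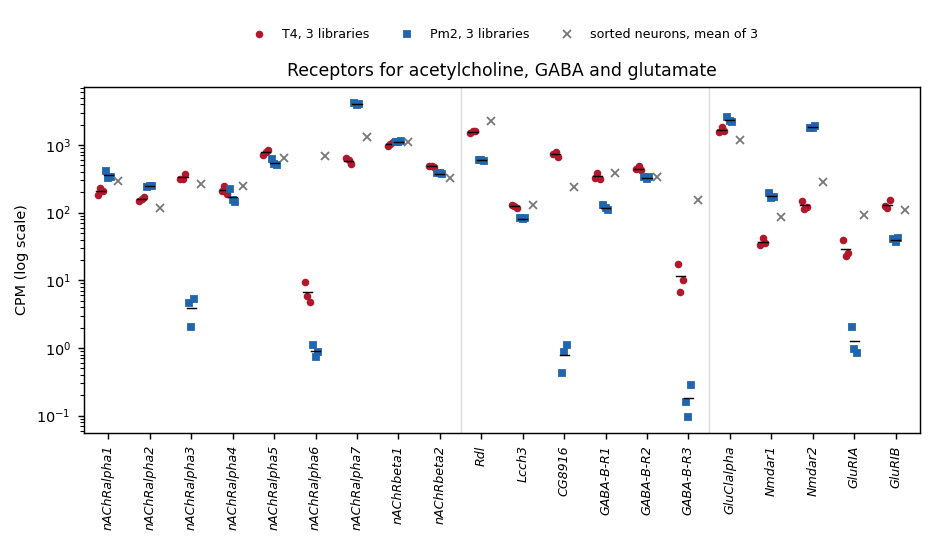
Level in CPM (log axis) of 9 nicotinic subunits, 6 GABA receptor genes and 5 glutamate receptor genes, divided by grey lines, in each of 3 T4 libraries (circles) and 3 Pm2 libraries (squares), with means as bars and the mean of the 3 sorted neuron libraries as crosses; Grd, which had no count in some Pm2 libraries, is not drawn. CG8916 and nAChRalpha3 stand far higher in T4, and nAChRalpha7 and Nmdar2 higher in Pm2.

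Receptors for amines and for acetylcholine through G proteins were split. Of 19 tested, 10 were higher (52.6%) and 6 lower (31.6%) in T4, against 23.2% and 23.7% over all genes. Dop1R1, a dopamine receptor, was at 121, 150.5 and 151 CPM in T4 and 0.0531, 0.326 and 0.698 CPM in Pm2 (log2 difference 8.63, SE 0.41, adjusted p = 1.70e-07). CG18208, the octopamine receptor Octalpha2R, was at 248 ± 13.4 CPM in T4 and 4.21 ± 1.30 CPM in Pm2 (log2 difference 5.88, SE 0.22, adjusted p = 3.17e-08). The serotonin receptors went in opposite directions: the 5-HT2A gene was at 91 ± 11.5 CPM in T4 and 5.43 ± 0.688 CPM in Pm2, and 5-HT1A at 46.3 ± 4.35 CPM in T4 and 316 ± 14.1 CPM in Pm2. 5-HT1B was not called, with 47.2 ± 3.54 CPM in T4 and 55 ± 5.23 CPM in Pm2 and a 95% interval of -0.47 to 0.03 on the log2 scale. The muscarinic receptor mAChR-B was lower in T4, at 235, 216 and 207 CPM against 659, 606 and 608 CPM (log2 difference -1.51, SE 0.08, adjusted p = 5.47e-07).

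Neuropeptide receptors were divided between the types. Of 32 tested, 16 were higher (50%) and 8 lower (25%) in T4, against 23.2% and 23.7% over all genes. The list median was 2.98, or 2.54 with genes lacking a count in a type at their bound. CNMaR, the receptor for the peptide CNMamide, was at 862, 779 and 604 CPM in T4, 2.37, 2.11 and 2.02 CPM in Pm2 and 46.1 CPM in sorted neurons (log2 difference 8.43, SE 0.18, adjusted p = 1.47e-09). The tachykinin receptor TkR99D was at 166 ± 13.7 CPM in T4 and 0.260 ± 0.293 CPM in Pm2, and SPR, a receptor for sex peptide and myoinhibitory peptides, at 66.8 ± 5.33 CPM in T4 and 0.170 ± 0.0989 CPM in Pm2. Of SPR's exon length 26.8% overlaps another gene, frma. The myosuppressin receptor MsR1 had 38.8, 28 and 26.1 CPM in T4 and no count in Pm2, at least 1667-fold. Pm2 held the receptor for neuropeptide F, NPFR, at 161, 156 and 155 CPM against 1.96, 1.0 and 1.01 CPM in T4 (log2 difference -6.88, SE 0.23, adjusted p = 1.79e-08). Dh31-R, a diuretic hormone receptor, was at 0.707 ± 0.648 CPM in T4 and 239 ± 13 CPM in Pm2, and SIFaR, the SIFamide receptor, at 4.0 ± 0.342 CPM in T4 and 103 ± 7.85 CPM in Pm2.

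Of 24 tested neuropeptide genes, 9 were higher (37.5%) and 5 lower (20.8%) in T4, against 23.2% and 23.7% over all genes. The count higher in T4 was 4 when genes under 100 counts in 3 libraries were left out. Summed over the list, peptide transcripts reached 1921 to 2249.9 CPM in Pm2, 128 to 158 CPM in T4 and 2335 to 2801 CPM in sorted neurons. Nplp1, a precursor of several peptides, was at 67.7, 46.7 and 40.6 CPM in T4 and 1861, 1827 and 1537 CPM in Pm2 (log2 difference -5.07, SE 0.20, adjusted p = 5.10e-08). Dh44, a diuretic hormone of the CRF family, was at 2.79 ± 1.67 CPM in T4 and 174 ± 5.90 CPM in Pm2, and Proc, proctolin, at 5.87 ± 0.597 CPM in T4 and 128 ± 7.50 CPM in Pm2. Gpb5, a glycoprotein hormone subunit, was present in both, at 29.6 ± 0.962 CPM in T4 and 35.2 ± 2.17 CPM in Pm2, and was not called (95% interval -0.49 to -0.01).

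Ion channels differed steeply in a few members. Of 21 potassium channel genes, 8 were higher (38.1%) and 4 lower (19%) in T4, and of 17 sodium, calcium and cation channel genes, 5 were higher (29.4%) and 6 lower (35.3%), against 23.2% and 23.7% over all genes. The median of the second list was -0.04. The cation channel counts fell to 3 higher when T4 replicate 2, Pm2 replicate 2 or Pm2 replicate 3 was left out. Shaker, listed as Sh, a fast-inactivating voltage-gated potassium channel, was at 2667, 3248 and 3236 CPM in T4 and 263, 247 and 269.6 CPM in Pm2 (log2 difference 3.55, SE 0.10, adjusted p = 5.50e-09). Its beta subunit Hk was higher in T4 by less, at 1077 ± 37.9 CPM in T4 and 595 ± 27 CPM in Pm2. The potassium channel eag was at 422 ± 18.1 CPM in T4 and 3.63 ± 1.17 CPM in Pm2, and SK, which is opened by calcium, at 334 ± 30.8 CPM in T4 and 60.9 ± 5.99 CPM in Pm2. Shawl, of another potassium channel family, was lower in T4, at 74.8 ± 9.39 CPM in T4 and 329.9 ± 18 CPM in Pm2.

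Calcium channel genes were called in both directions. Ca-alpha1T, a low-voltage-activated T-type channel, was at 756, 743 and 876 CPM in T4 and 4.0, 2.97 and 3.55 CPM in Pm2 (log2 difference 7.81, SE 0.15, adjusted p = 8.58e-10). Ca-alpha1D, an L-type channel, was lower in T4, at 397, 444 and 492 CPM against 1271, 1227 and 1219.7 CPM (log2 difference -1.48, SE 0.09, adjusted p = 1.07e-06). The presynaptic channel cac was at 1251 ± 102 CPM in T4 and 1211 ± 84.8 CPM in Pm2, groups that overlapped, with a 95% interval of -0.15 to 0.24. Ih, the hyperpolarization-activated cation channel, and na, the sodium leak channel narrow abdomen, were both lower in T4, at 1218 ± 138 CPM in T4 and 3147 ± 226 CPM in Pm2 and at 173 ± 39.7 CPM in T4 and 659 ± 48.2 CPM in Pm2. With all 12 libraries in the fit the adjusted p of na was 0.0874 (1.67e-38 to 0.0874 over the settings tried). NaCP60E, a relative of the voltage-gated sodium and calcium channels, was higher in T4, at 2732 ± 192 CPM in T4 and 1034 ± 5.73 CPM in Pm2.

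The dpr genes and their DIP partners code for proteins that bind each other between neurons. Of 32 tested, 21 were higher (65.6%) and 4 lower (12.5%) in T4, with a median of 2.91. The shares over all genes were 23.2% and 23.7%. The first member, listed as dpr, was at 920.2, 1029.9 and 1027 CPM in T4 and 0.390, 0.556 and 0.264 CPM in Pm2 (log2 difference 11.26, SE 0.19, adjusted p = 4.08e-10). dpr10 was at 454 ± 53.7 CPM in T4 and 0.472 ± 0.194 CPM in Pm2, dpr20 at 177 ± 18.8 CPM in T4 and 0.340 ± 0.304 CPM in Pm2, dpr8 at 169 ± 10.2 CPM in T4 and 7.73 ± 0.556 CPM in Pm2 and dpr5 at 35.3 ± 8.22 CPM in T4 and 0.348 ± 0.0514 CPM in Pm2. Fewer members belonged to Pm2. CG31708, named DIP-zeta in the annotation, was at 5.12, 1.66 and 0.336 CPM in T4 and 1919.8, 1521 and 1577 CPM in Pm2, with T4 replicate 1 the highest of its group (log2 difference -9.44, SE 0.68, adjusted p = 3.38e-06). dpr11 was at 119 ± 15 CPM in T4 and 365 ± 10.9 CPM in Pm2, with an adjusted p of 0.0843 in the fit of all 12 libraries (2.58e-46 to 0.0843 over the settings tried), in which 1 member in place of 4 was called lower. dpr19, at 189.8 ± 8.29 CPM in T4 and 216 ± 13.3 CPM in Pm2, was not called (95% interval -0.38 to 0.01).

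The beat and side genes, another set of paired immunoglobulin proteins, were more evenly divided. Of 21 tested, 12 were higher (57.1%) and 7 lower (33.3%) in T4, with a median of 0.83. The shares over all genes were 23.2% and 23.7%. beat-IIa was at 103, 103 and 96.3 CPM in T4 and 1039, 1088 and 1064 CPM in Pm2 (log2 difference -3.40, SE 0.08, adjusted p = 1.70e-09), and beat-IIb at 25.7 ± 6.03 CPM in T4 and 666 ± 23.5 CPM in Pm2 (log2 difference -4.70, SE 0.17, adjusted p = 2.86e-08). CG34371, named side-V in the annotation, was at 51.9 ± 3.41 CPM in T4 and 449.5 ± 11.7 CPM in Pm2. beat-VI and beat-VII were the reverse, at 188 ± 7.48 CPM in T4 and 3.58 ± 0.569 CPM in Pm2 and at 321 ± 16.1 CPM in T4 and 19.8 ± 3.16 CPM in Pm2.

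Of 21 leucine-rich repeat, Toll and teneurin genes, 12 were higher (57.1%) and 6 lower (28.6%) in T4, against 23.2% and 23.7% over all genes. Connectin, listed as Con, a homophilic adhesion protein, was at 709.9, 806 and 713 CPM in T4 and 6.47, 7.27 and 6.53 CPM in Pm2 (log2 difference 6.78, SE 0.11, adjusted p = 4.08e-10). The kekkon genes were on the same side, with kek1 at 638 ± 94.3 CPM in T4 and 33.8 ± 2.21 CPM in Pm2 and kek2 at 99.3 ± 7.91 CPM in T4 and 0.112 ± 0.133 CPM in Pm2. Ten-m, a teneurin that matches synaptic partners, was lower in T4, at 200.02, 199.98 and 237 CPM against 1084, 1025 and 1083 CPM (log2 difference -2.33, SE 0.09, adjusted p = 4.89e-08), as was the receptor Tl, at 108 ± 3.06 CPM in T4 and 421 ± 6.63 CPM in Pm2. Of 28 axon guidance genes, 15 were higher (53.6%) and 7 lower (25%) in T4, with 3 lower in the fit of all 12 libraries. The receptors for Slit parted: robo3 was at 105, 115 and 99.4 CPM in T4 and 936, 920.02 and 903 CPM in Pm2 (log2 difference -3.11, SE 0.09, adjusted p = 5.25e-09), and lea, which is Robo2, at 123 ± 12.6 CPM in T4 and 1.79 ± 0.532 CPM in Pm2 (log2 difference 6.10, SE 0.21, adjusted p = 2.19e-08). An antisense RNA overlaps 41.0% of the exon length of lea. The Wnt5 receptor drl was higher in T4, at 54.2 ± 7.09 CPM in T4 and 2.45 ± 0.443 CPM in Pm2, and Sema-1a was at 341 ± 37.4 CPM in T4 and 319 ± 32.8 CPM in Pm2 with overlapping groups (95% interval -0.15 to 0.34).

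Of 43 other adhesion genes, 19 were higher (44.2%) and 11 lower (25.6%) in T4, against 23.2% and 23.7% over all genes. Turtle, listed as tutl, an immunoglobulin protein of axon tiling, was at 2222, 2499 and 2792 CPM in T4 and 9.79, 11.9 and 14.2 CPM in Pm2 (log2 difference 7.71, SE 0.18, adjusted p = 1.70e-09). Klingon, listed as klg, was at 957 ± 101 CPM in T4 and 0.591 ± 0.125 CPM in Pm2 and fasciclin 3, listed as Fas3, at 627 ± 47.6 CPM in T4 and 6.10 ± 0.601 CPM in Pm2. The neuroligin Nlg2, a postsynaptic adhesion protein, was at 2229, 2597 and 2107 CPM in T4, 168, 176 and 155 CPM in Pm2 and 387 CPM in sorted neurons (log2 difference 3.80, SE 0.10, adjusted p = 5.20e-09). Echinoid, listed as ed, was at 185 ± 8.12 CPM in T4 and 0.270 ± 0.151 CPM in Pm2. The classical cadherin CadN was at 369.98 ± 15.6 CPM in T4 and 328 ± 21.1 CPM in Pm2 and was not called (95% interval -0.01 to 0.36).

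**Figure D4:**
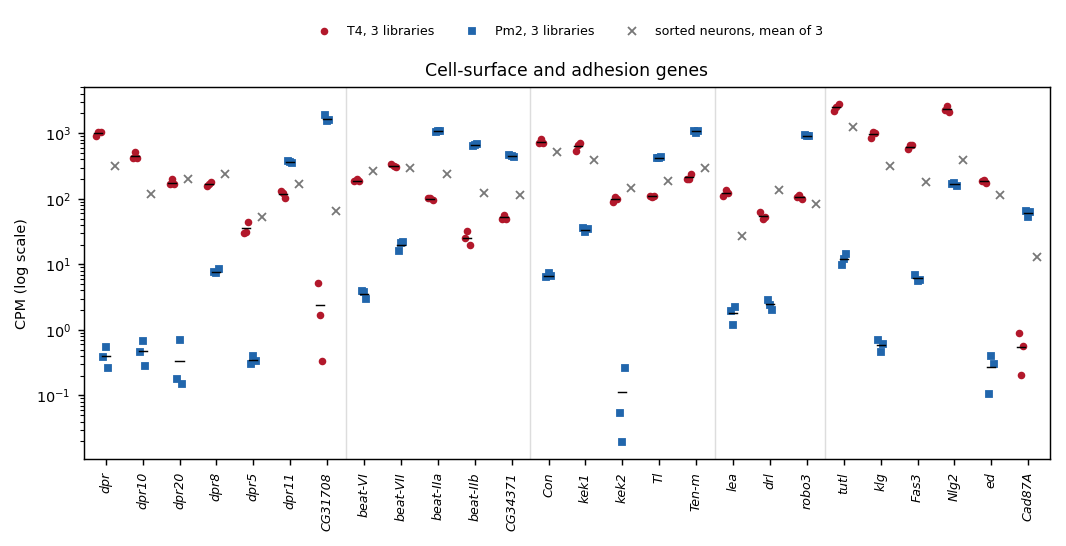
Level in CPM (log axis) of 26 cell-surface genes in each of 3 T4 libraries (circles) and 3 Pm2 libraries (squares), with means as bars and the mean of the 3 sorted neuron libraries as crosses; grey lines divide dpr and DIP, beat and side, leucine-rich repeat, guidance and other adhesion genes. The T4 and Pm2 points of every gene shown are apart, and CG31708 and Cad87A are near or under 1 CPM in some T4 libraries but at 1673 and 59.9 CPM in Pm2.

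The vesicle release machinery, which all neurons share, differed by smaller folds. Of 34 genes, 17 were higher (50%) and 6 lower (17.6%) in T4, with a median of 0.28. The shares over all genes were 23.2% and 23.7%. The count higher in T4 fell to 11 when T4 replicate 2, Pm2 replicate 2 or Pm2 replicate 3 was left out, and to 10 in the fit of all 12 libraries. Sytalpha, a synaptotagmin, was at 1649.9, 1684 and 1279 CPM in T4 and 325, 265 and 265 CPM in Pm2 (log2 difference 2.43, SE 0.13, adjusted p = 4.23e-07). Syt1, the calcium sensor of fast release, was at 4197 ± 283 CPM in T4 and 1881 ± 273 CPM in Pm2 (2.23-fold). The priming factor unc-13 was at 2941 ± 132 CPM in T4 and 1570.3 ± 47.2 CPM in Pm2, with 25.2% of its exon length overlapped by an antisense RNA. The active zone scaffold brp was lower in T4, at 1054 ± 84.2 CPM in T4 and 1841 ± 131 CPM in Pm2, as were Syngr, a vesicle protein, at 302 ± 10.4 CPM in T4 and 863 ± 72.5 CPM in Pm2 and Syt12 at 81.4 ± 4.18 CPM in T4 and 358 ± 35.4 CPM in Pm2. The dynamin shi was at 2222 ± 114 CPM in T4 and 2489.8 ± 42.2 CPM in Pm2 and was not called (95% interval -0.31 to -0.02).

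Of 19 cyclase and phosphodiesterase genes, 13 were higher (68.4%) and 2 lower (10.5%) in T4, with a median of 2.25. The shares over all genes were 23.2% and 23.7%. Ac76E, an adenylate cyclase, was at 197, 219 and 175 CPM in T4 and 0.142, 0.269 and 0.0378 CPM in Pm2 (log2 difference 10.35, SE 0.28, adjusted p = 5.22e-09). Of the ACX cyclases, known from the male germline, ACXC was also present in T4, at 111, 174 and 139 CPM with a mean of 0.0128 CPM in Pm2. ACXB, its neighbour on 2L, had 13.5, 24.1 and 26.9 CPM in T4 and no Pm2 count, at least 1158-fold. Another member, ACXD, was not called. The calcium-activated cyclase rutabaga, listed as rut, was the reverse, at 189.6, 193 and 183 CPM in T4 and 726, 631 and 663 CPM in Pm2 (log2 difference -1.84, SE 0.08, adjusted p = 1.33e-07). The guanylate cyclase subunit Gycbeta100B was at 307 ± 53.9 CPM in T4 and 28.8 ± 3.97 CPM in Pm2. Among 22 neuronal RNA-binding proteins, 7 were higher (31.8%) and 11 lower (50%) in T4. The gene aret, which codes for Bruno 1, was at 84.1 ± 6.64 CPM in T4 and 0.244 ± 0.253 CPM in Pm2, A2bp1, which codes for Rbfox1, at 572 ± 47.7 CPM in T4 and 225 ± 21.3 CPM in Pm2, and mub at 828 ± 49.1 CPM in T4 and 2745 ± 272 CPM in Pm2.

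Many genes of energy supply and protein synthesis were lower in T4. Of 14 glycolysis enzymes none was called higher and 11 lower (78.6%, against 23.7% over all genes), with a median of -1.07. Eno, enolase, was at 706, 595 and 644 CPM in T4 and 1602, 1717 and 1715 CPM in Pm2 (log2 difference -1.37, SE 0.08, adjusted p = 9.89e-07), Gapdh2 at 884 ± 91.5 CPM in T4 and 1964 ± 3.63 CPM in Pm2 and Pgi at 157 ± 8.71 CPM in T4 and 407 ± 25.6 CPM in Pm2. On library totals alone 1 glycolysis gene was called higher. Of 87 cytoplasmic ribosomal protein genes, 4 were higher (4.60%) and 55 lower (63.2%) in T4, with a median of -0.49. Of 72 mitochondrial ones, 3 were higher (4.17%) and 47 lower (65.3%) in T4, with a median of -0.50. The count of cytoplasmic ones lower in T4 was 29 in the fit of all 12 libraries. RpS7 was at 128 ± 15.4 CPM in T4 and 245 ± 5.92 CPM in Pm2, sta, which codes for a small-subunit protein, at 174 ± 1.22 CPM in T4 and 379 ± 25.2 CPM in Pm2, and mRpL4 at 15.8 ± 0.340 CPM in T4 and 57.4 ± 6.78 CPM in Pm2. Of 24 genes of the vacuolar ATPase, the proton pump of vesicles and lysosomes, 2 were higher (8.33%) and 4 lower (16.7%) in T4, both under the shares over all genes of 23.2% and 23.7%, with a median of -0.07; Vha55 was at 1391 ± 28.1 CPM in T4 and 1851 ± 121 CPM in Pm2.

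All 15 mitochondrially encoded genes were tested, of which 14 were lower in T4 (93.3%, against 23.7% over all genes). Their median was -1.10, and 1 library stood apart in them. The cytochrome oxidase subunit mt:CoI was at 908, 1105 and 1018 CPM in T4 and at 3232, 1681 and 1602 CPM in Pm2, and mt:ATPase6 at 233, 289.6 and 249 CPM and 1097, 471 and 464 CPM. The groups did not overlap, and Pm2 replicate 1, which had the largest share of ribosomal RNA counts among the 6 T4 and Pm2 libraries, stood well above the other Pm2 libraries. The log2 difference of mt:CoI was -1.10 (SE 0.24, adjusted p = 0.00425) and -0.71 without Pm2 replicate 1 (adjusted p = 0.000456). Under quantile normalization the call of mt:CoI was lost, with an adjusted p of 0.0825 (0.000456 to 0.0825 over the settings tried). The ribosomal RNA of mitochondria, mt:lrRNA, was at 3391 ± 88 CPM in T4 and 6278 ± 2213 CPM in Pm2. The count of mitochondrial genes called lower was 5 under quantile normalization, 7 by limma-trend and 8 in the fit of all 12 libraries. Whether RNA quality had a part in these values was not tested.

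Heat-shock genes were lower in T4 or not called, with none of 19 called higher and a median of -1.32. The 12 called lower were 63.2% of the list, against 23.7% over all genes. Summed over the list they reached 4035 to 4303 CPM in T4, 8550.5 to 8709 CPM in Pm2 and 4165 to 4799 CPM in sorted neurons. The chaperones Hsp83 and Hsc70-4, which cells make without stress, were at 1542 ± 62.1 CPM in T4 and 3160.2 ± 119.9 CPM in Pm2 and at 1138 ± 46.4 CPM in T4 and 2299 ± 56.5 CPM in Pm2. The mitochondrial chaperone Hsc70-5 was at 181 ± 7.91 CPM in T4 and 459.99 ± 23.2 CPM in Pm2. Hsp70Bb, an inducible Hsp70 gene, was at 1.16, 1.03 and 0.890 CPM in T4 and 297, 323 and 310.4 CPM in Pm2 (log2 difference -8.23, SE 0.13, adjusted p = 4.08e-10). It has near-identical copies between which reads can be split, and one of these, Hsp70Bc, was at 1.30 ± 0.30 CPM in T4 and 2.40 ± 0.454 CPM in Pm2 and was not called. The level of Hsp70Bb is therefore uncertain. The stress-responsive phosphatase gene puc was also lower in T4, at 8.43 ± 2.24 CPM in T4 and 63.8 ± 9.28 CPM in Pm2. Of 12 immediate early genes, 3 were higher (25%) and 6 lower (50%) in T4, against 23.2% and 23.7% over all genes. Without T4 replicate 2 or Pm2 replicate 3, 1 was higher. Hr38, an activity-regulated nuclear receptor, overlapped between the groups, at 319 ± 94.5 CPM in T4 and 427 ± 69 CPM in Pm2 (95% interval -0.89 to 0.05), and Arc1 was at 0.747 ± 0.363 CPM in T4 and 11.2 ± 1.79 CPM in Pm2.

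Of 12 clock genes, 2 were higher (16.7%) and 4 lower (33.3%) in T4, against 23.2% and 23.7% over all genes, so the counts are near the background and single members are given as values. Atx2 and tyf, whose proteins promote translation of per mRNA in clock neurons, were at 339 ± 34.7 CPM in T4 and 2253 ± 133 CPM in Pm2 and at 123 ± 13.9 CPM in T4 and 651 ± 49.1 CPM in Pm2, and per at 2.60 ± 0.380 CPM in T4 and 27.3 ± 4.30 CPM in Pm2. Of 15 sex determination and dosage compensation genes, 8 were higher (53.3%) and 1 lower (6.67%) in T4. The transcription factor gene fru, which has sex-specific transcripts, was at 393, 417 and 404 CPM in T4 and 49.6, 51.3 and 38.5 CPM in Pm2 (log2 difference 3.12, SE 0.12, adjusted p = 4.70e-08). roX1, a non-coding RNA of dosage compensation in males, was at 35.7, 76.7 and 29.5 CPM in T4 and 12.2, 9.19 and 9.72 CPM in Pm2 (log2 difference 2.19, SE 0.33, adjusted p = 0.000516), with T4 replicate 2 the highest. The labels did not give the sex of the flies.

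**Figure D5:**
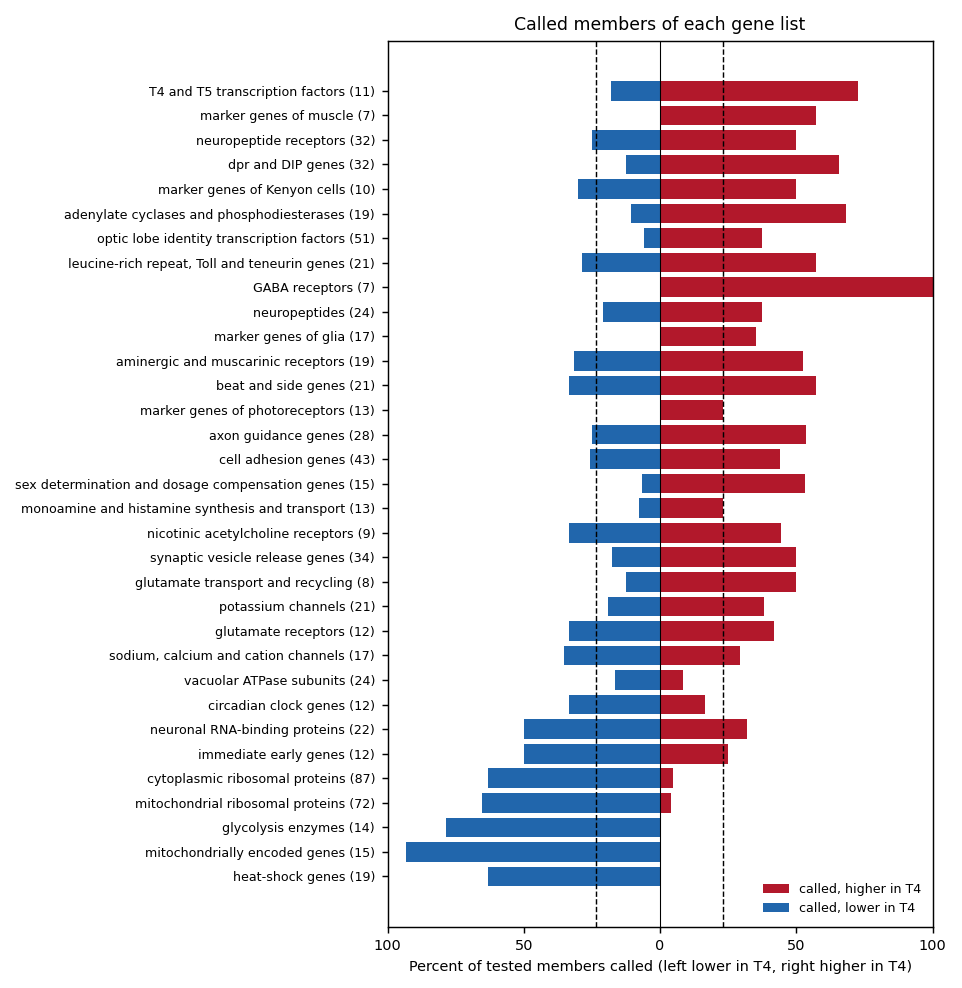
Share of the tested members of each gene list that were called higher (right) or lower (left) in T4, in percent, for the 33 lists with 7 or more tested members, ordered by median log2 difference, with the number tested in parentheses; dashed lines mark the shares over all genes, 23.2% higher and 23.7% lower. GABA receptors stand at the full share higher, and heat-shock, glycolysis and mitochondrially encoded genes have members called lower but none higher, although on library totals alone 1 glycolysis gene was called higher.

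Marker lists of other cells were at unequal levels in the types, and those of photoreceptors and Kenyon cells were not low. Beside the glial genes, Mlc2, a myosin light chain of muscle, was at 30.7, 2.97 and 1.40 CPM in T4 and 0.903, 1.53 and 1.06 CPM in Pm2. Of 7 tested muscle markers 4 were called higher in T4 (57.1%), and none without T4 replicate 1. Tracheal markers summed to 0.309 to 1.74 CPM in T4 and 12.5 to 14.4 CPM in Pm2, with serp at 0.528 ± 0.845 CPM in T4 and 9.22 ± 1.35 CPM in Pm2. Haemocyte markers summed to 58.9 to 73.1 and 116 to 135 CPM, and fat body markers to 2.34 to 3.62 and 0.321 to 2.09 CPM, in T4 and Pm2 in this order. Photoreceptor markers summed to 1029 to 1169 CPM in T4 and 744 to 769.6 CPM in Pm2, against 879 to 965 CPM in sorted neurons. Of 13 tested, 3 were called higher in T4 (23.1%), which is near the 23.2% over all genes, and none lower. Kenyon cell markers summed to 1627 to 1820.01 CPM in T4, 2945 to 3351 CPM in Pm2 and 3019.7 to 3549 CPM in sorted neurons. Of 10 Kenyon cell markers, several of which other neurons also use, 5 were higher (50%) and 3 lower (30%) in T4. The shares over all genes were 23.2% and 23.7%. The part of other cells in the gene differences was not tested.

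Long genes were more often higher in T4. Over the fifth of tested genes with the shortest exons, at most 1002 bases, 13.5% were called higher and 23.3% lower, with a median of -0.07. Over the fifth with the longest, at least 3962 bases, 35.9% were called higher and 23.8% lower, with a median of 0.16. The median exon length was 1946 bases over all tested genes with a length, 909.5 over cytoplasmic ribosomal protein genes, 783 over mitochondrial ones and 2112 over glycolysis genes. The part of length in the ribosomal protein results was not tested. By chromosome, the share called higher in T4 ranged from 19.8% of 1804 genes on X to 25.7% of 2040 on 3L, and was 41.3% of the 92 tested genes on the small chromosome 4, on which Sox102F, unc-13 and CG1732 lie. There, 10.9% were lower and the median was 0.41.

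Sorted neurons were between the types for most of the strongly different genes. Of the 2410 genes called by at least 2-fold, the mean of sorted neurons lay between the T4 and Pm2 means for 1647 (68.3%), above both for 460 and below both for 303. These genes were selected for a wide gap between the T4 and Pm2 means, into which another mean can readily fall. The share was not taken over other genes, so this is a description. CNMaR lay far above sorted neurons in T4 and far below them in Pm2, Tektin-C lay above them in both types, and VGlut and nAChRalpha6 below them in both.

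Other abundant genes differed little. For 1530 genes, 14.5% of those tested, the 95% interval of the log2 difference lay within -0.5 and 0.5. The most abundant was IA-2, a phosphatase-like protein of dense-core vesicles, at 9800.00, 13680.00 and 13769 CPM in T4 and 13089, 11995 and 12156 CPM in Pm2, with an interval of -0.27 to 0.27. Atpalpha, the catalytic subunit of the sodium pump, was at 10301 ± 273 CPM in T4 and 12488 ± 600.1 CPM in Pm2 and was called with a log2 difference of -0.28 (adjusted p = 0.00279), a call lost by limma-trend (adjusted p = 0.164), on library totals alone (adjusted p = 0.131), in the fit of all 12 libraries (adjusted p = 0.0661) and under quantile normalization (adjusted p = 0.161), which turned the difference to 0.48. Its adjusted p was 0.000922 to 0.164 over the settings tried. Argk, arginine kinase, was at 4860.04 ± 529.9 CPM in T4 and 4539.6 ± 304 CPM in Pm2 (interval -0.10 to 0.30), the sodium pump subunit nrv3 at 4749 ± 199 CPM in T4 and 4389.5 ± 342 CPM in Pm2 (interval -0.05 to 0.28) and calmodulin, listed as Cam, at 2664 ± 222 CPM in T4 and 2537 ± 119.7 CPM in Pm2 (interval -0.10 to 0.25). The synaptic vesicle protein nSyb had an interval of -0.12 to 0.16.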

How the data were processed

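RNA of T4, Pm2, neurons and glia sorted from optic lobes was sequenced, with 3 libraries of each. Whole-number counts per gene were deposited by the authors in 1 table for the 12 libraries, which its name calls normalized. Library totals differ, and every whole number from 1 to 30 occurs in each library, without the gaps that scaling up and rounding leave, so the values were used as counts. Scaling down and rounding leaves no such gaps, so this check cannot show whether the values were scaled before. The p-values assume unscaled counts. The submitters' processing notes name the build BDGP6 and the tools HTSeq 0.6.1, STAR 2.5.2 and Trimmomatic 0.32, and the annotation release is not given in the sources used here. Smart-Seq v4 libraries do not mark strand, so overlapping and antisense genes cannot be told apart where they share exons. Of 16272 gene names, 11996 matched a symbol and 4085 a synonym in the Ensembl BDGP6 annotation, and 191 did not match. Coordinates, exon lengths and overlaps come from it.

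Genes with 10 or more counts in 3 or more of the 12 libraries were kept, and 304 of these 10528 had no count in the 6 T4 and Pm2 libraries. The 6 libraries were fitted with edgeR 4.0.16 (R 4.3.3; TMM, quasi-likelihood test, two-sided, Benjamini-Hochberg adjustment, threshold 0.05) with cell type as the only term. CPM use TMM factors over the 12 libraries. The SE is the log2 difference over the root of its F statistic, and intervals are 95%. Floors of 3 counts over 3 libraries, 0.0194 CPM for T4 and 0.0186 CPM for Pm2, cover counting error only. The test was tried on counts simulated from 10224 of the genes with 200 genes changed, many of which it did not call. Libraries of a type differed by 18.1 to 63.6 times the chi-square per degree of freedom that counting noise gives, so none was a copy of another.

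The genes compared, the markers and the gene lists were chosen with earlier results of these data known. The text names the 4 markers and a choice from the following: genes among the 10 largest differences in each direction with a mean of 100 counts or more in the higher type, up to 5 called members of a list by smallest p and up to 2 abundant members not called, the 8 most abundant genes with narrow intervals and up to 10 near-exclusive genes of each type, of which Pm2 had 7. All tested nicotinic and GABA receptor genes are named. Chosen after their values were seen were CG31708, Dh31-R, GluClalpha, Syt1, Tektin-C, TfAP-2, TkR99D, bi, brp, dac, dpr11, elav, Vmat and repo. Alternatives were median-of-ratios scaling, library totals, no scaling, quantile normalization with limma 3.58.1, limma-trend, DESeq2 1.42.0, 3 other count filters, a fit of all 12 libraries, a replicate block and leaving out each of the 6 libraries. No sequences are printed.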

Additional observations from a re-analysis of the deposited data

How the results depend on the processing

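The number of genes called was 3836 to 5231 over the 17 alternatives, against 4937, and the genes called by at least 2-fold numbered 1979 to 2513, against 2410. The lowest count was from the fit of all 12 libraries, of whose calls 3693 were shared with the 4937, and the highest from DESeq2, which shared 4892. In none of the alternatives did a shared gene change direction. Leaving out 1 library gave 4168 to 4815 called genes and 2209 to 2404 by at least 2-fold, 69 to 73 near-exclusive genes of T4 and 7 to 11 of Pm2. For the near-exclusive genes, which rest on CPM and no test, quantile normalization was not run, and DESeq2, limma-trend, the fit of all 12 libraries and the replicate block give no value. Of the 162 called genes tracked one by one, 142 kept their call and direction in each of the 17 alternatives that tested them.

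The replicate numbers did not pair the libraries: deviations of same-numbered T4 and Pm2 libraries correlated at -0.0115, -0.0282 and 0.0247 over genes. With the replicate block 4456 genes were called, 4400 of them shared.

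The directions that turned were of small differences. Quantile normalization put Atpalpha, whose call it also lost, at 0.478 and nAChRbeta1 at 0.135 on the log2 scale, and library totals put nAChRbeta1 at 0.0314. Without scaling, cac was at -0.0265, nSyb at -0.0463 and IA-2 at -0.0777. IA-2 was at -0.0160 by limma-trend and -0.0154 with the block. Leaving out 1 library put IA-2 at -0.0805 to 0.145 and cac at -0.0172 to 0.101. The cause of these shifts was not tested. Of the fifth of tested genes with the lowest mean CPM over the types, 11.3% were called, and of the fifth with the highest, 70.2%, as a description.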
